A study of Mus musculus with 11 samples.

Results

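The genes described are 10 targets of the transcription factor p53 whose products promote cell death: Bax, Bbc3, Pmaip1, Fas, Tnfrsf10b, Eda2r, Perp, Aen, Phlda3 and Trp53inp1. They were chosen by gene name for this known role, with earlier results of these data known. All 10 were found among the 47517 gene names of the count table. Their RNA was measured by sequencing in forelimb buds of E10.5 mouse embryos on a C57BL/6 background. Mutant embryos were Gmnn f/f; Prx-Cre, with both alleles of Gmnn floxed, and control littermates were Gmnn +/f; Prx-Cre, with a single floxed allele. Gmnn encodes Geminin, which restrains the licensing of replication origins, and both groups carried the Prx-Cre transgene, which drives Cre recombinase in limb bud mesenchyme rather than in ectoderm, endothelium or blood cells. The 11 libraries, 5 of controls and 6 of mutants, came from 4 litters, called A to D here: controls 1 and 2 and mutants 1 and 2 in litter A, control 3 and mutant 6 in B, control 4 and mutant 5 in C, and control 5 and mutants 3 and 4 in D.

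When p53 is stabilised, for instance by DNA damage or stalled replication, it switches on genes that act at several points of the cell death programme. Some of the products open the outer mitochondrial membrane, some are cell surface receptors of the tumour necrosis factor receptor family that signal from outside, and some act as helpers such as nucleases, membrane proteins or feedback factors. Much of p53 activity is controlled through the stability of the protein, so that the level of its own transcript says little about it.

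Total counts were 14721181 to 19733288 per library. The level of Gmnn was 139.3 to 238.9 CPM (counts scaled to library size) in controls and 99.5 to 137.7 CPM in mutants, lower in mutants without overlap. All 6 limb mesenchyme markers were present, with a summed level of 450.7 to 601.3 CPM in controls and 470.5 to 553.4 CPM in mutants. Mutants had positive fold changes for 4 markers and negative ones for 2. None passed an adjusted p under 0.05, although Tbx5 (-0.28 on the log2 scale), Twist1 (0.25) and Hand2 (0.37) had an edgeR unadjusted p under 0.05. Summed marker levels overlapped between controls and mutants for surface ectoderm (188.6 to 337.2 against 209.1 to 344.5 CPM), endothelium (136.3 to 209.8 against 111.4 to 186.6 CPM), macrophages (6.94 to 31.0 against 11.5 to 41.6 CPM) and red blood cells (10038 to 24659 against 11979 to 41556 CPM). Single markers leaned to mutants in the last pair of lists: 8 of 9 macrophage genes (median log2 fold change 0.53) and 6 of 7 red cell genes (median 0.29) were higher, with none past the threshold. Muscle precursor sums overlapped too (50.1 to 81.7 against 48.6 to 88.3 CPM), as did neural crest sums (8.11 to 14.8 against 6.12 to 11.5 CPM). Of 5 muscle precursor genes, 3 were higher and 2 lower. Lbx1 (0.82), Myf5 (-1.25) and Myod1 (-2.10, 75 reads in all) had an edgeR unadjusted p under 0.05. The 3 neural crest genes tested were lower (median -0.48). With edgeR neither list had a gene past the threshold, and DESeq2 called Lbx1. The part of these cell types in the results below was not tested. In such bulk samples, fewer cells of a type and less RNA per cell cannot be told apart. A T-run index was computed for each library, the mean over tested genes of the longest run of T in a transcript, weighted by CPM. It was 9.75 in control 5, 10.3 to 10.8 in the other controls and 9.21 to 10.2 in mutants, so that control 5 lay among the mutants.

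Sequence near the start sites of the genes is shown first, as a place among others where p53 can act on genes. RefSeq promoter windows of 300 bases (GRCm38.p6, the same assembly as mm10), from 250 bases before to 50 after a start site, were at hand for 6 of the 10 genes, with 9 windows in all. They were searched for a pair of p53 decamers, the repeat unit of p53 binding sites. The decamer consensus has 10 letters and is its own reverse complement, so that a single search covers both strands. Up to 13 bases were allowed between the decamers and up to 3 mismatches in all, with the central C and G of each decamer kept. Such a pair was present in 5 of the 9 windows, in Bax, Bbc3 and Aen, and in 15.6% of all 32851 windows of the same length. Windows of a gene can overlap, and the same Aen pair was counted in both of its windows. By gene the count was 3 of 6, while the 15.6% is a share of windows. The windows of Eda2r, Fas and Phlda3 had none, and sequence outside the windows was not searched for any gene. A match is a description of the letters and not a measured binding site. One pair per gene is printed 5′ to 3′ on the strand of the gene, with the decamers in capitals.
Bax promoter (chr7:45467049-45467129, minus strand): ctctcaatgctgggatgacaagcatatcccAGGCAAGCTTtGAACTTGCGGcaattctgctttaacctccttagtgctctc
Bbc3 promoter (chr7:16309456-16309535, plus strand): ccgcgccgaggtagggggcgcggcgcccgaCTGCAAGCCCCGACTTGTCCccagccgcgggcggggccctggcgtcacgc
Aen site (chr7:78895937-78895956, plus strand): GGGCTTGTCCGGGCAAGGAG
The Bax pair has 2 mismatches and begins 201 bases upstream of the start site. At most 2 mismatches were present in 4.09% of all windows. The Bbc3 pair has 3 mismatches and begins 97 bases upstream. The Aen pair, also with 3 mismatches, begins 121 bases upstream of one annotated start and lies downstream of another, and only the site itself is shown.

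The genotype comparison asked whether these death-promoting genes differed in limb buds with less Gmnn. All 10 genes passed the filter on low counts, and 3 rose in mutants at an adjusted p under 0.05: Eda2r, Phlda3 and Trp53inp1. None fell. Of all 15821 genes tested, 2.18% passed the threshold, and 0.702% passed it as higher in mutants. These shares are given as background, and no test of the 10 genes as a list was made. The median log2 fold change was 0.36 over the 10 genes and 0.00382 over all genes tested. An unadjusted p under 0.05 was reached by 5 of the 10, which adds Bax and Aen, all higher in mutants. The share of all genes was 21.4%, and 9.84% as higher in mutants. The same 5 were higher in mutants in each of the 4 litters, as were 12.8% of all genes tested. Tests were edgeR's quasi-likelihood F test with litter as a block, and p-values were adjusted by Benjamini-Hochberg over the 15821 genes. All fold changes below come from this fit and give log2 of mutant over control, and each ± is an SD over 5 controls or 6 mutants.

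**Figure D1:**
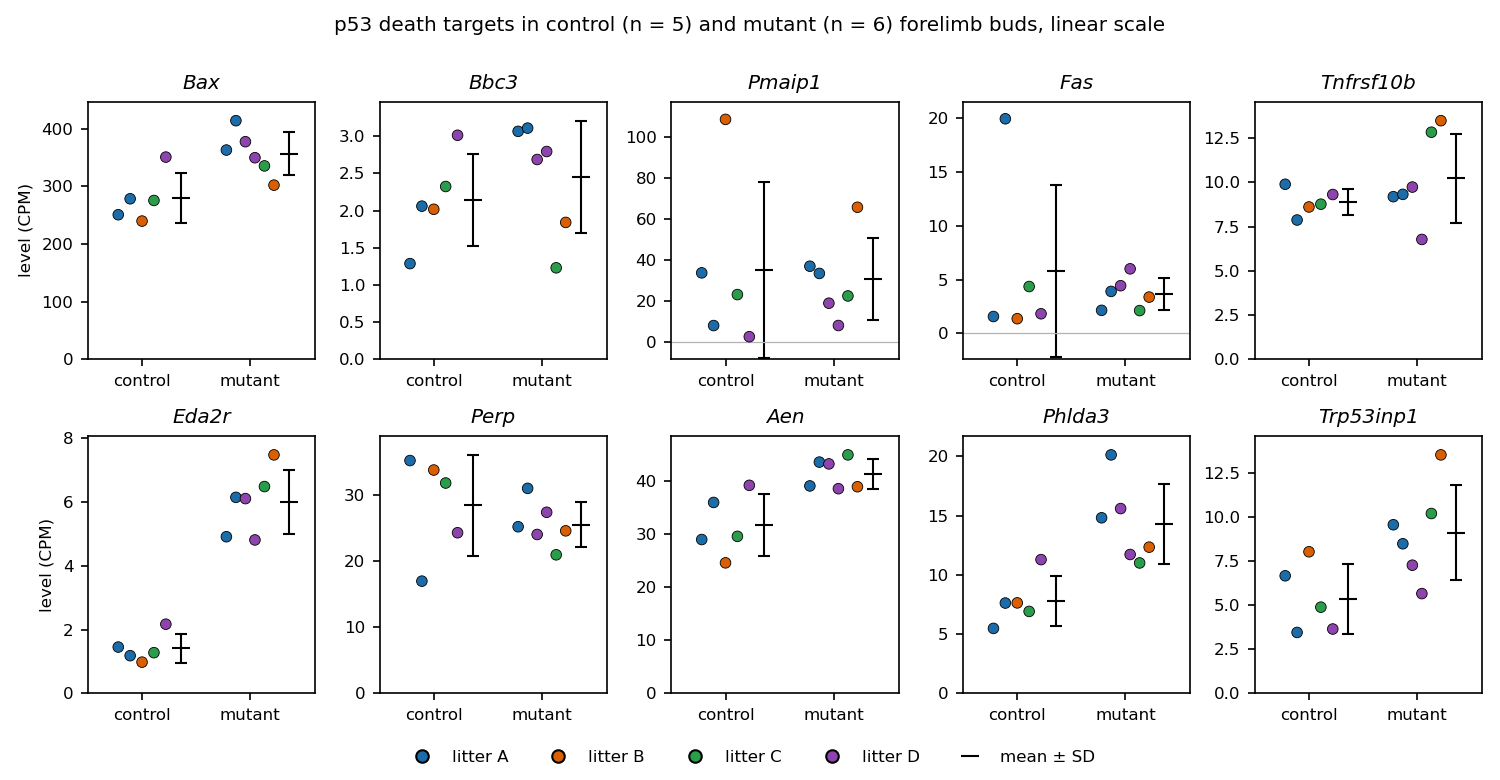
Level of each gene in CPM on a linear axis, with 1 point per library coloured by litter and the mean ± SD beside each group. For Eda2r every mutant (4.82 to 7.48 CPM) lies above every control (0.981 to 2.17 CPM), and the groups overlap for the other 9 genes.

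Scaled by exon length, the genes spanned a wide range. In controls, Bax stood at 321.0 ± 49.8 RPKM (CPM per kilobase of exon), far above the rest. Perp (14.96 ± 4.03 RPKM) and Pmaip1 (13.2 ± 16.2 RPKM) followed, and they did not differ beyond their spread. The Pmaip1 mean rests on control 3 (41.0 RPKM), and the remaining controls had 0.900 to 12.7 RPKM of it. Aen (5.45 ± 1.01 RPKM) and Phlda3 (4.99 ± 1.37 RPKM) were alike within their SD. By mean, Fas (3.23 ± 4.45 RPKM) and Tnfrsf10b (2.81 ± 0.24 RPKM) came next, but the Fas mean rests on control 2 (11.1 RPKM). The other controls had 0.757 to 2.42 RPKM of Fas, below the lowest Tnfrsf10b control (2.48 RPKM). Bbc3 (1.07 ± 0.31 RPKM) and Trp53inp1 (0.823 ± 0.304 RPKM) were within an SD of each other, and Eda2r was lowest at 0.240 ± 0.078 RPKM. Eda2r, at the bottom of this order, had the largest fold change of the 10, and Bax, at the top, had a small one.

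The mitochondrial arm of the programme is represented by Bax, Bbc3 and Pmaip1. Bax (chromosome 7, 45461695 to 45466898, minus strand, mm10) encodes a protein that forms pores in the outer mitochondrial membrane. Controls 1 to 5 stood at 250.7, 278.4, 239.7, 275.4 and 350.7 CPM, and the mutants ran from 302.0 to 413.9 CPM with a median of 356.3 CPM. Control 5 alone overlapped the mutants, and the other 4 controls lay below all of them. The mean was 279.0 ± 43.3 CPM in controls and 356.9 ± 38.0 CPM in mutants, a log2 fold change of 0.33 (SE 0.08, 95% interval 0.15 to 0.52), which missed the threshold (edgeR adjusted p 0.0563). Without control 5 it was 0.43 and passed (edgeR adjusted p 0.0237), as it did with DESeq2 (adjusted p 0.00862), with a Y-linked covariate (edgeR adjusted p 0.0390) and without the filter on low counts (edgeR adjusted p 0.00120). Without litter A it was 0.20 (edgeR adjusted p 0.262). In the fits where Bax passed, the share of all genes that passed was above 2.18% as well. It was 5.35% without control 5, 5.35% without the filter, 7.55% with DESeq2 and 4.86% with the Y-linked covariate. Without the filter the value of Bax was unchanged at 0.33.

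Bbc3 (chromosome 7, 16309616 to 16318205) encodes Puma and Pmaip1 (chromosome 18, 66458604 to 66465550) encodes Noxa. Both are BH3-only proteins, which free or activate pore formers such as Bax. Bbc3 was low, with 18 to 53 reads per library. It stood at 1.29, 2.06, 2.02, 2.32 and 3.01 CPM in controls 1 to 5 and at 1.23 to 3.11 CPM in mutants with a median of 2.74 CPM, so that the mutants spanned the whole control range. Its log2 fold change was 0.12 (95% interval -0.48 to 0.72, edgeR adjusted p 0.850), and it was higher in mutants in 1 of the 4 litters.

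Pmaip1 varied widely between libraries, also between controls 1 and 2 of the same litter. It stood at 33.6, 7.83, 108.5, 22.9 and 2.38 CPM in controls 1 to 5, a 34 to 1990 read range, and at 7.85 to 65.6 CPM in mutants with a median of 27.8 CPM. The highest control and the highest mutant were both from litter B, and the lowest of each were from litter D. The log2 difference of mutants from controls was 0.76 in litter A, -0.73 in B, -0.04 in C and 2.48 in D. The fitted log2 fold change was 0.53 (95% interval -0.41 to 1.47, edgeR adjusted p 0.516), and without litter as a block its sign turned, to -0.19 (edgeR adjusted p 0.916). With a library left out the value ran from 0.18 (without control 5) to 0.90 (without control 3), and it was 0.25 without control 2. Without the filter on low counts it passed at 0.53 (edgeR adjusted p 0.000319). The value was thus nearly unchanged, and 5.35% of all genes passed in that fit. The interaction of genotype and litter gave 438 genes without the filter, in place of 0.

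**Figure D2:**
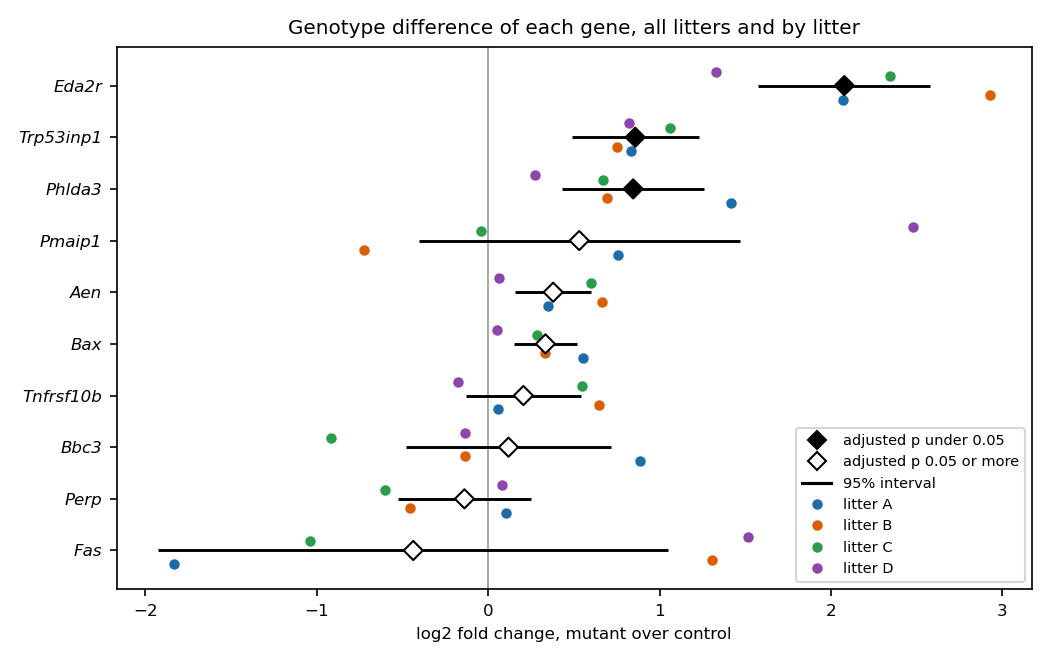
Log2 fold change of each gene, mutant over control, from the fit over all litters (diamonds, filled where the adjusted p is under 0.05) with its 95% interval, and the difference within each litter (coloured points). Eda2r (2.08), Trp53inp1 (0.86) and Phlda3 (0.85) are the 3 filled diamonds, and the litters of Pmaip1, Fas, Bbc3, Perp and Tnfrsf10b lie on both sides of 0.

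Fas, Tnfrsf10b and Eda2r encode receptors. Eda2r (chromosome X, 97333840 to 97377216, minus strand) is the receptor for the A2 form of ectodysplasin and belongs to the tumour necrosis factor receptor family. Controls 1 to 5 held 1.45, 1.18, 0.981, 1.28 and 2.17 CPM, from 18 to 31 reads per library. In mutants it ran from 4.82 to 7.48 CPM with a median of 6.13 CPM, from 81 to 122 reads. The lowest mutant was above the highest control, which was true of 1.29% of all genes tested and of no other of the 10 genes. The log2 fold change was 2.08 (SE 0.23, 95% interval 1.58 to 2.58), or 4.22-fold, with an edgeR adjusted p of 0.00550, and it had the second smallest p of all genes tested. It was higher in 4 of 4 litters, by 2.07, 2.93, 2.34 and 1.33. Eda2r is X-linked, and with the level of Y-linked genes as a covariate its value was 2.07 (edgeR adjusted p 0.00447). Mutant 5 had 4 Y-linked reads and 8 reads of Xist, the RNA of the inactive X, so that this covariate does not give the X status of that library. It passed in 9 of 11 fits with a library left out, and missed narrowly without control 4 (adjusted p 0.0503) or without mutant 5 (adjusted p 0.0543), both of litter C. It missed as well without litter A (edgeR adjusted p 0.0599). Leaving out litter C (edgeR adjusted p 0.0511) is nearly the same fit as leaving out control 4 or mutant 5, its only libraries. The same holds for litter B with control 3 and mutant 6, so that these fits are not separate checks.

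Its ligand gene Eda was low, at 1.59 ± 0.65 CPM in controls and 1.76 ± 0.62 CPM in mutants (log2 fold change 0.17, edgeR adjusted p 0.807).

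Fas (chromosome 19, 34290659 to 34327770) encodes the death receptor for Fas ligand. Controls 1 to 5 had 1.57, 19.98, 1.36, 4.36 and 1.82 CPM, and mutants had 2.12 to 6.01 CPM with a median of 3.64 CPM. Control 2 stood apart with 388 reads, where the other controls had 25 to 75 and mutants 31 to 101. Its haemoglobin share was 3.30% of counts, above the 1.34 to 2.20% of the other controls, and mutant 2, with 5.44%, had 3.90 CPM of Fas. Control 2 was also the highest control for Krt8 (67.3 against 16.7 to 31.5 CPM) and Krt18 (131.0 against 46.2 to 91.0 CPM). It was the highest for no other surface ectoderm marker. Whether any of this bears on Fas was not tested. The log2 fold change was -0.44 (95% interval -1.93 to 1.05, edgeR adjusted p 0.764), and without control 2 its sign turned, to 0.73 (edgeR adjusted p 0.328). It was higher in mutants in litters B (1.31) and D (1.52) and lower in litters A (-1.83) and C (-1.04). The ligand gene Fasl was at 0 reads in all controls and at 1 read in 2 mutants.

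Tnfrsf10b (chromosome 14, 69767472 to 69784403) encodes the mouse receptor for the death ligand Trail. It was the steadiest of the 10 in controls, at 9.90, 7.88, 8.61, 8.77 and 9.32 CPM, and ran from 6.78 to 13.5 CPM in mutants with a median of 9.53 CPM. Mutants 5 and 6 were above all controls and mutant 4 was below them. The log2 fold change was 0.21 (95% interval -0.13 to 0.54, edgeR adjusted p 0.481), and with a library left out it ran from 0.10 (without control 3 or mutant 6) to 0.33 (without control 5). Tnfsf10, which encodes Trail, had at most 3 reads in any library.

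The other 4 genes encode helpers and feedback factors. Phlda3 (chromosome 1, 135766119 to 135769136) encodes a small protein that opposes the survival kinase Akt at the membrane. It stood at 5.48, 7.62, 7.63, 6.91 and 11.3 CPM in controls 1 to 5 and at 11 to 20.1 CPM in mutants with a median of 13.6 CPM. Only mutant 5, the lowest mutant, lay below the highest control, control 5. Phlda3 rose by 0.85 (SE 0.19, 95% interval 0.43 to 1.26), or 1.80-fold, with an edgeR adjusted p of 0.0468 and a higher level in 4 of 4 litters.

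Trp53inp1 (chromosome 4, 11156431 to 11174379) encodes a nuclear stress protein that acts with p53 and also takes part in autophagy. It stood at 6.66, 3.45, 8.01, 4.88 and 3.64 CPM in controls 1 to 5 and at 5.65 to 13.5 CPM in mutants with a median of 9.01 CPM. The groups overlapped, but the difference within litters was even: 0.83, 0.75, 1.06 and 0.82 in litters A to D. It rose by 0.86 (SE 0.17, 95% interval 0.49 to 1.23), or 1.81-fold, with an edgeR adjusted p of 0.0406. Without litter as a block the value was 0.77 and did not pass (edgeR adjusted p 0.111), and Phlda3 had 0.88 (edgeR adjusted p 0.0574) in that fit.

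These calls were close to the threshold. Of 11 fits with a library left out, Phlda3 passed in 1, the one without control 5, and Trp53inp1 in 3 of them, those without control 1, control 5 or mutant 2. In the other fits of this kind the edgeR adjusted p reached 0.169 for each of them, with log2 fold changes from 0.70 to 0.93 for Phlda3 and from 0.74 to 0.89 for Trp53inp1. Without litter A as a whole Phlda3 was at 0.51 (edgeR adjusted p 0.216), and Trp53inp1 was at 0.87 (edgeR adjusted p 0.106).

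Aen (chromosome 7, 78895854 to 78911209) encodes an exonuclease that enhances apoptosis. It stood at 28.9, 35.9, 24.5, 29.5 and 39.1 CPM in controls 1 to 5, and the 6 mutants were tightly grouped between 38.5 and 44.8 CPM with a median of 41.1 CPM. Only control 5 reached into the mutant range. The log2 fold change was 0.38 (SE 0.10, 95% interval 0.16 to 0.60, edgeR adjusted p 0.0681), and without control 5 it was 0.49 and passed (edgeR adjusted p 0.0293). It also passed with DESeq2 (adjusted p 0.0185), with the Y-linked covariate (edgeR adjusted p 0.04998) and without the filter on low counts (edgeR adjusted p 0.00916). The share of all genes that passed was higher in these fits as well, as given for Bax.

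Perp (chromosome 10, 18845071 to 18857073) encodes a membrane protein of desmosomes, the junctions of epithelia, that was first known as an effector of p53. It stood at 35.2, 17.0, 33.8, 31.8 and 24.3 CPM in controls 1 to 5 and at 21.0 to 31.0 CPM in mutants with a median of 24.9 CPM, all within the control range. The log2 fold change was -0.14 (95% interval -0.53 to 0.25, edgeR adjusted p 0.712), and with a library left out it ran from -0.30 (without control 2) to -0.02 (without control 1). Of the 11 surface ectoderm markers, 5 were higher and 6 lower in mutants and none passed the threshold.

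**Figure D3:**
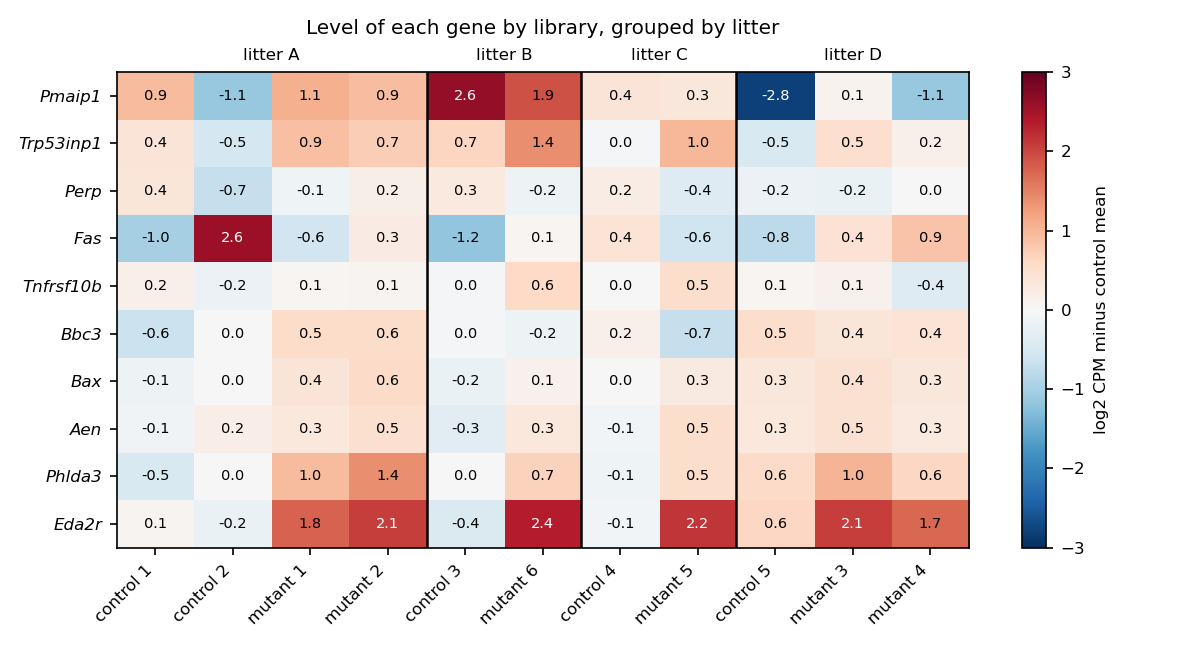
Log2 CPM of each gene minus its control mean, by library, with vertical lines between litters. The Eda2r row separates mutants (1.7 to 2.4) from controls, and the Pmaip1 row runs from 2.6 in control 3 to -2.8 in control 5. Control 5 is above the control mean for Bax, Aen, Phlda3, Bbc3, Eda2r and, by 0.07, Tnfrsf10b.

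Across libraries the 10 genes did not move as a single block. Bax and Phlda3 ranked mutants 2, 3 and 1 highest, in that order. Pmaip1 and Trp53inp1 shared another order: control 3, control 1 and control 4 were the highest controls for both, and mutant 6 was the highest mutant for both. Control 5 was the highest control for Bax, Bbc3, Eda2r, Aen and Phlda3, and the lowest for Pmaip1. The difference in litter D, to which it belongs, was the smallest of the 4 litters for Bax (0.05), Aen (0.06), Phlda3 (0.27) and Eda2r (1.33). Without control 5, 5 of the 10 genes passed (Bax, Eda2r, Aen, Phlda3 and Trp53inp1) and 5.35% of all genes did. The genotype by litter interaction was not shown for any of them: its unadjusted p was lowest for Phlda3 (0.0877), and over all genes 0 passed an adjusted p under 0.05 with edgeR, on 3 residual degrees of freedom, while 605 (3.82%) had an unadjusted p under 0.05.

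The T-run index moved with genotype. In each of the 4 litters every mutant had a lower index than every control. The index is also computed from the same CPM values, so that it and genotype can hardly be told apart here. With it as a covariate, an alternative added after seeing the data, none of the 10 genes passed. Eda2r then had a log2 fold change of 1.71 (edgeR adjusted p 0.236), Trp53inp1 1.16 (edgeR adjusted p 0.282), Phlda3 0.25 (edgeR adjusted p 0.710), Bax 0.08 (edgeR adjusted p 0.758) and Aen 0.16 (edgeR adjusted p 0.727), and 3 genes passed among all tested. The estimates for Phlda3, Bax and Aen thus fell more than 1.5 times in that fit, and that of Trp53inp1 was larger. The longest T run in the transcripts of the 10 genes themselves was 4 to 11 bases, except in Tnfrsf10b with 16. None of the 10 shares exon bases with another gene in the annotation used for counting.

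Other parts of the p53 and cell death pathways were read from lists of genes, also chosen with earlier results of these data known. Of 22 p53 targets and regulators with roles in arrest and stress, 20 were tested and 6 passed, all higher: Ccng1 (1.48), Cdkn1a (1.38), Sesn2 (0.98), Btg2 (0.73), Zmat3 (0.64) and Ei24 (0.38), with edgeR adjusted p from 0.000407 to 0.0468. Among all genes tested, 2.18% passed, and 0.702% passed as higher in mutants. Cdkn1a encodes the cell cycle inhibitor p21, Sesn2 a stress sensor, Btg2 an antiproliferative factor and Zmat3 a zinc finger RNA-binding protein. With a library left out, Ccng1 passed in all 11 fits and the other 5 in 1 to 3 of them. Without litter as a block, Btg2 (0.63, edgeR adjusted p 0.128) and Ei24 (0.37, edgeR adjusted p 0.0591) did not pass. When the T-run index was added to the model, Ccng1 passed (1.49, edgeR adjusted p 0.0324) and the other 5 had edgeR adjusted p from 0.236 to 0.365. The values in that fit were 0.78 for Cdkn1a, 0.79 for Sesn2, 0.73 for Btg2, 0.81 for Zmat3 and 0.41 for Ei24, so that the estimate fell by over 1.5 times for Cdkn1a alone. The longest T run was 26 bases in Cdkn1a, 23 in Ei24, 18 in Btg2, 18 in Zmat3, 9 in Ccng1 and 5 in Sesn2. Without genes that have a T run of 15 bases or more, Ccng1 (1.47) and Sesn2 (0.97) passed, and the other 4 were not in that fit. Of the exon bases of Ei24, 9.31% lie in an antisense gene. The median of this list was 0.06, since 9 of the 20 were lower. Trp53 itself was at 620.5 ± 31.6 CPM in controls and 587.4 ± 65.9 CPM in mutants (-0.10, edgeR adjusted p 0.418). Mdm2, a p53 target that encodes its main inhibitor, was at 35.5 ± 3.01 and 37.4 ± 2.84 CPM (0.09, edgeR adjusted p 0.557).

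The partners of the receptors and the machinery downstream of mitochondria were read in the same way, beside the 2.18% of all genes that passed. Among 12 ligands, adaptors and other partners of death receptors, 10 were tested and 1 passed. This was Fadd, the adaptor that links Fas and the Trail receptor to caspase-8, which fell. It stood at 29.98, 24.2, 27.8, 25.7 and 20.9 CPM in controls 1 to 5 and at 15.8 to 17.9 CPM in mutants. Every mutant was below every control, as for 1.30% of all genes tested. The log2 fold change was -0.58 (SE 0.11, edgeR adjusted p 0.0353). It passed in 2 of 11 fits with a library left out, and adding the T-run index to the model gave -0.30 (edgeR adjusted p 0.468). Fadd has a T run of 22 bases, and 6.12% of its exon bases lie in an antisense gene. None of the 11 Bcl2 family genes tested passed (median -0.002), and none of the 17 genes of the apoptosome, caspases and their inhibitors did (median 0.007). At an unadjusted p under 0.05 there were 3 of 11 and 3 of 17, beside 21.4% of all genes. DESeq2 and limma-voom each called 1 gene of either list, Bcl2l1 and Casp2, both lower in mutants.

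**Figure D4:**
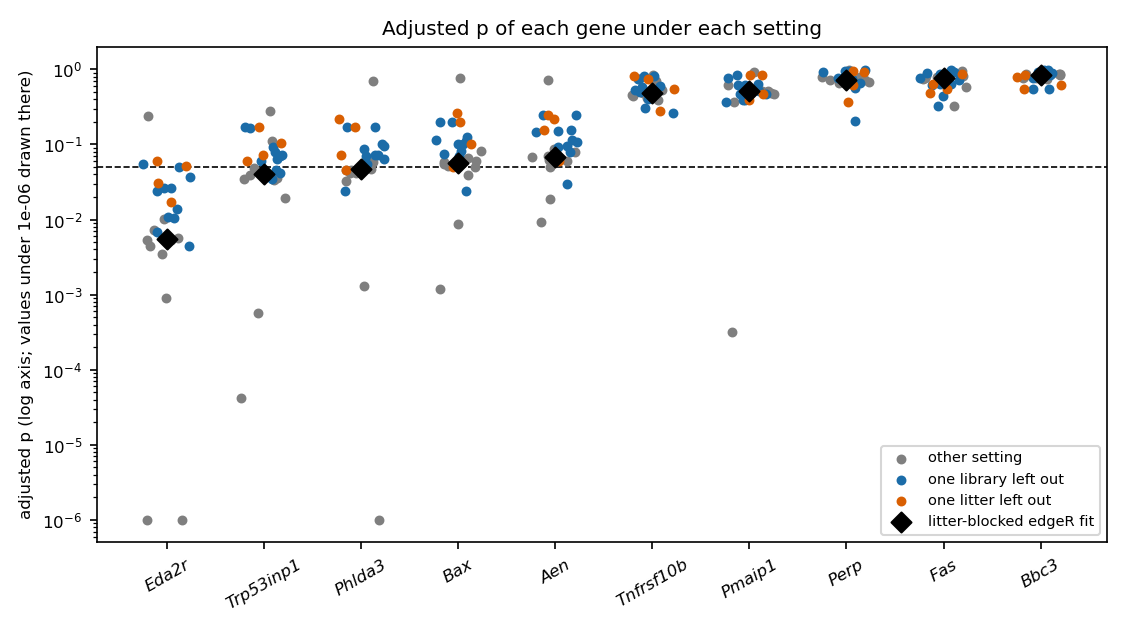
Adjusted p of each gene on a log axis under each setting (points) and in the litter-blocked edgeR fit (diamonds), with the threshold of 0.05 as a dashed line. Eda2r is below the line in 21 of 26 alternatives, Trp53inp1 in 12 and Phlda3 in 10, while Bax and Aen are below it in 4 each. Fits without litter B or a library of it are nearly the same fit, as are those for litter C.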

How the data were processed

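Gene-level RNA-seq counts of 11 forelimb bud libraries were used. The authors deposited raw counts of reads for each gene name, made with featureCounts 1.4.6-p4 on mm10 and GENCODE M9, with a mapping quality of at least 10 and no option for strand or read pairs, per the file headers, after alignment with STAR 2.5.4b, per the submitters' processing notes. The header lists 12 alignment files; 11 sample columns were analysed here. The deposited exon length in bases, another column, was used for RPKM. Groups and litters come from sample titles, and nothing says that embryos were pooled.

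The analysis ran in R 4.3.3 with edgeR 4.0.16 (limma 3.58.1 for one alternative): filterByExpr (15821 genes kept, with 99.9% of counts), TMM scaling and a quasi-likelihood F test with litter as a block. The block follows the design text, which speaks of litter-matched pairs. Deviations from group means correlated by -0.16 to 0.37 (median 0.13) in the 8 pairs of opposite genotype within litters, and by -0.33 to 0.17 (median -0.02) in the 22 pairs across litters. CPM are relative to TMM-scaled totals, and log2 CPM used a prior count of 2. SE and 95% intervals come from the same test. The test was checked on simulated counts. Whether libraries differed by more than counting noise was checked too: chi-square per degree of freedom was at least 7.43 for pairs within groups.

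The named genes are Gmnn, the 10 members, genes of 4 further lists past the threshold (up to 6 per list) and the 5 genes most alike in pattern. Marker genes, ligands, Trp53, Mdm2 and 4 genes just short of the threshold are named outside this rule, with their values seen. Members and lists were chosen with earlier results of these data known. Alternatives were other scalings (RLE, upper quartile), no filter or 1 CPM in 5 libraries, DESeq2 1.42.0, a fit without the block, limma-voom, a covariate for Y-linked genes, leaving out genes of mitochondria, globins and ribosomal RNA, and each library or litter left out. The 2 alternatives on T runs (GENCODE M21 transcripts) were added after seeing the data.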

Additional observations from a re-analysis of the deposited data

How the results depend on the processing

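Of the 10 genes, 3 passed with RLE or upper-quartile scaling, 1 CPM in 5 libraries, limma-voom or without mitochondrial, haemoglobin and ribosomal RNA genes. The number was 6 without a filter on low counts, 5 with DESeq2, 5 with the Y-linked covariate, 1 with no replicate block, 0 with the T-run index covariate and 2 without genes that have T runs of 15 bases or more. It ranged from 0 to 5 when 1 library or litter was left out, with 0 without control 4, mutant 5, litter A or litter C. Over all genes, 345 (2.18%) passed. The number was 390 (2.47%) with RLE, 360 (2.28%) with upper-quartile scaling and 439 (2.77%) with limma-voom. Without mitochondrial, haemoglobin and ribosomal RNA genes it was 367 (2.33%). It was 1566 (5.35%) without a filter, 550 (4.1%) with 1 CPM in 5 libraries, 1194 (7.55%) with DESeq2 and 769 (4.86%) with the Y-linked covariate. It fell to 13 (0.0822%) with no replicate block, 3 (0.019%) with the T-run index covariate and 102 (0.731%) without T-run genes. When 1 library or litter was left out it ran from 1 (0.00632%) to 846 (5.35%). Each share is of the genes tested in that fit. Upper-quartile scaling gave 43.1% higher among the genes passed, against 32.2% with TMM. The interaction gave 438 genes without a filter, in place of 0. The cause of these shifts was not tested.

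The sign turned for Pmaip1 with no replicate block (-0.19), for Fas without control 2 (0.73) or litter A (0.64), and for Bbc3 without control 1 (-0.08), without litter A (-0.35) or with the T-run index covariate (-0.40). None of these values passed. With 1 library or litter left out, Bbc3 ran from -0.35 to 0.33 and Fas from -0.98 to 0.73. The other 7 genes kept their sign in all alternatives. Depth limits Bbc3, Fas and Eda2r most, with 18 to 25 reads in their lowest libraries.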

Other observations

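The 5 genes outside the 10 whose litter-centred log2 CPM ran most closely with theirs, by the median of 10 Pearson correlations over the 11 libraries, were Setd6 (0.80), Hk1os (0.78), Zfp593 (0.76), Cela1 (0.76) and Cdc73 (0.76). These values describe 12616 genes ranked on the libraries that also carry the genotype difference, so that libraries and litters are shared. Each of the 5 had at least 1 negative correlation with the 10, its lowest value lying between -0.38 and -0.11. Among the 10 themselves the median over 45 pairs was 0.17. Of the 5, Cela1 passed the threshold (log2 fold change 0.94, edgeR adjusted p 0.0490), and Setd6, first by this measure, did not (0.14, edgeR adjusted p 0.527).

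A few genes of the lists of p53 and cell death genes lay just short of the threshold. They were picked out after their values were seen. Sesn1, a stress-induced p53 target of the same family as Sesn2, was at 24.0 ± 1.82 CPM in controls and 18.1 ± 1.79 CPM in mutants (-0.41, edgeR adjusted p 0.0546), with every mutant below every control. Bcl2l1, which encodes the survival protein Bcl-xL, had -0.51 (edgeR adjusted p 0.0515) and a T run of 24 bases. Casp2 had -0.47 (edgeR adjusted p 0.0525), and Tradd, an adaptor of tumour necrosis factor receptor signalling, had -0.94 (edgeR adjusted p 0.0546). All 4 passed with DESeq2 and with limma-voom.

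None of the 40 comparisons of a highest or lowest library with the rest of its genotype, made on log2 CPM for the 10 genes, met Dixon's criterion, where chance would give about 2. Fas in control 2 was the most visible single value on the CPM scale and did not meet it on the log2 scale.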
